A study of Mus musculus with 49 samples.

Results

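The 9 genes described here mark natural killer (NK) cells and cytotoxic T cells: the granzymes Gzma, Gzmb and Gzmk, perforin (Prf1), the receptor subunits Klrd1, Klrk1 and Il2rb, the death ligand Fasl and the cysteine protease Ctsw. They were taken from the array's annotation by symbol, and all 9 of 9 were on the array, among 8251 genes in all. They had 10 probe sets, and for Klrk1, which had 2, the brighter one over all 49 arrays stands for the gene. NK cells and cytotoxic T cells kill a target cell by releasing granules in which perforin opens the way for granzymes, or by holding Fas ligand against the target's Fas receptor. CD94, encoded by Klrd1, pairs with NKG2 proteins and reads a non-classical MHC molecule, while NKG2D, encoded by Klrk1, is an activating receptor for stress-induced ligands. The chain encoded by Il2rb is shared by the receptors of IL-2 and IL-15, cytokines that keep NK cells and memory T cells alive.

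The study followed arthritis caused by transfer of K/BxN serum, which carries autoantibodies, into male B6 mice of 6 weeks. Synovial fluid cells were profiled at days 3 (3 arrays), 7 (4), 12 (3) and 18 (3) after the first injection. Whole ankle was profiled at days 0 (4 arrays), 1 (2), 3 (3), 7 (4), 12 (3) and 18 (3), and peripheral blood leukocytes, after red cell lysis, at days 0, 1, 3, 7 and 12 (3 arrays each) and 18 (2 arrays). All groups thus share strain, sex and age, day 0 is the only baseline, and fluid has no day 0. Ankle was prepared differently from the other two. Per the descriptions, its RNA was extracted with SDS and urea and amplified in 2 rounds. Most fluid and blood RNA was extracted with Trizol and amplified with a kit. Fluid and blood cells were collected in different ways, with red cell lysis for blood. In every contrast between tissues, including fluid against blood, tissue and preparation therefore cannot be told apart. Replicate 1 of fluid at days 3 and 7 came from washing the opened ankles, and fluid day 7 replicate 4, day 18 replicate 3 and blood day 3 replicate 3 were amplified in 2 rounds. Only the blood labels call the replicates biological, and for fluid and ankle the p-values may measure technical spread.

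The values are log2 of the deposited RMA intensities. Array medians lay between 57.7 and 64.1 on the linear scale. Arrays of the same tissue and day had a Pearson r of 0.930 to 0.995 over the 8251 genes. The 34 negative control probe sets had a 95th percentile of 6.85 on the log2 scale, and 48.5% of the 8251 genes had no group mean above it. A difference to a group under that level is at best a lower bound, and levels of different genes are not compared, since each probe set has its own scale. Albumin (Alb), a liver transcript, reached 8.95, 6.39, 8.41 and 10.65 in replicate 1 of the ankle at days 0, 1, 7 and 12, while the remaining ankle arrays stayed at or under 5.19. In bulk RNA, fewer cells of a type and less RNA per cell cannot be told apart.

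The cytotoxic genes lay in clusters as well as alone. On GRCm38.p6, Gzma (chromosome 13, 113093824 to 113100981) and Gzmk (chromosome 13, 113171630 to 113180965) were 70648 bases apart, and Klrd1 (chromosome 6, 129588092 to 129598775) and Klrk1 (chromosome 6, 129610323 to 129623903) were 11547 bases apart. Gzmb (chromosome 14, 56258836 to 56262334), Prf1 (chromosome 10, 61297751 to 61304684), Il2rb (chromosome 15, 78479256 to 78511621), Fasl (chromosome 1, 161780691 to 161788495) and Ctsw (chromosome 19, 5465043 to 5468628) were each the only one of the 9 on their chromosome. RefSeq promoters of that build, from 250 bases before to 50 after the transcription start, were found for 6 of the 9 genes (Gzma, Gzmb, Gzmk, Prf1, Klrk1 and Fasl). Both strands were searched for letters of factors known in these lineages: GGTGTGA (T-box), CCGGAAG (an ETS core), TGTGGTT (RUNX) and TTCNNNGAA (STAT5). The 4 promoters with a match are shown because 3 of them belong to genes measured above the controls in blood (Gzma, Gzmb and Klrk1) and 1 to a granzyme that was not (Gzmk). They are written on the strand of the gene, with the matches in capitals.
Gzma, chr13:113100932-113101231, minus strand: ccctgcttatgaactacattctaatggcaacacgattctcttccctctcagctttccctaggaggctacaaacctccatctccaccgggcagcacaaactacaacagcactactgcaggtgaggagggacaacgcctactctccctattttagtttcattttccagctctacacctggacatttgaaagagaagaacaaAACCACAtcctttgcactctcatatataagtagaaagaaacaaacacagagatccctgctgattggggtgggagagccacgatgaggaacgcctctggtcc
Gzmb, chr14:56262285-56262584, minus strand: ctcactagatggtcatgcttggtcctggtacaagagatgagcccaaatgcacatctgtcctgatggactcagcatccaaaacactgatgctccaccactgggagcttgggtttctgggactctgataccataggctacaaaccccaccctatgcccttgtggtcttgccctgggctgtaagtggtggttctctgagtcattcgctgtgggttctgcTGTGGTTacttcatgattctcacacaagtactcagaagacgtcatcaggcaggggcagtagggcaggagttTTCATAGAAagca
Gzmk, chr13:113180916-113181215, minus strand: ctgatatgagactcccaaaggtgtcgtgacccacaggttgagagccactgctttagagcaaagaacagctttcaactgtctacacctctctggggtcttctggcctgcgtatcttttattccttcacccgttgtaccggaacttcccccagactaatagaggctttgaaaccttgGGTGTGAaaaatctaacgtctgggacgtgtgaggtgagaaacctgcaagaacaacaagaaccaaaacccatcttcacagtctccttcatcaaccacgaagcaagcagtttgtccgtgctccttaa
Klrk1, chr6:129623815-129624114, minus strand: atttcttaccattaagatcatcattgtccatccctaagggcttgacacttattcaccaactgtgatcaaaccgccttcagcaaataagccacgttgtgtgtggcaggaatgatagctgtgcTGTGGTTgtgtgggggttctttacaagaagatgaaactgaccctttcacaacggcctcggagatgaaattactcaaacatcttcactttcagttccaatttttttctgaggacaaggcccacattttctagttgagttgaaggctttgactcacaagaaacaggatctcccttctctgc

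The RUNX letters began at position -34 in Gzmb and -129 in Klrk1, and on the opposite strand at -51 in Gzma. Gzmb also held the STAT5 letters at position 38, and Gzmk held the T-box letters at -75. Of all 32851 promoters of this length, 5.27% held the RUNX letters, 8.3% the STAT5 letters, 3.98% the T-box letters and 8.86% the ETS core. These matches describe the letters of the windows only.

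**Figure D1:**
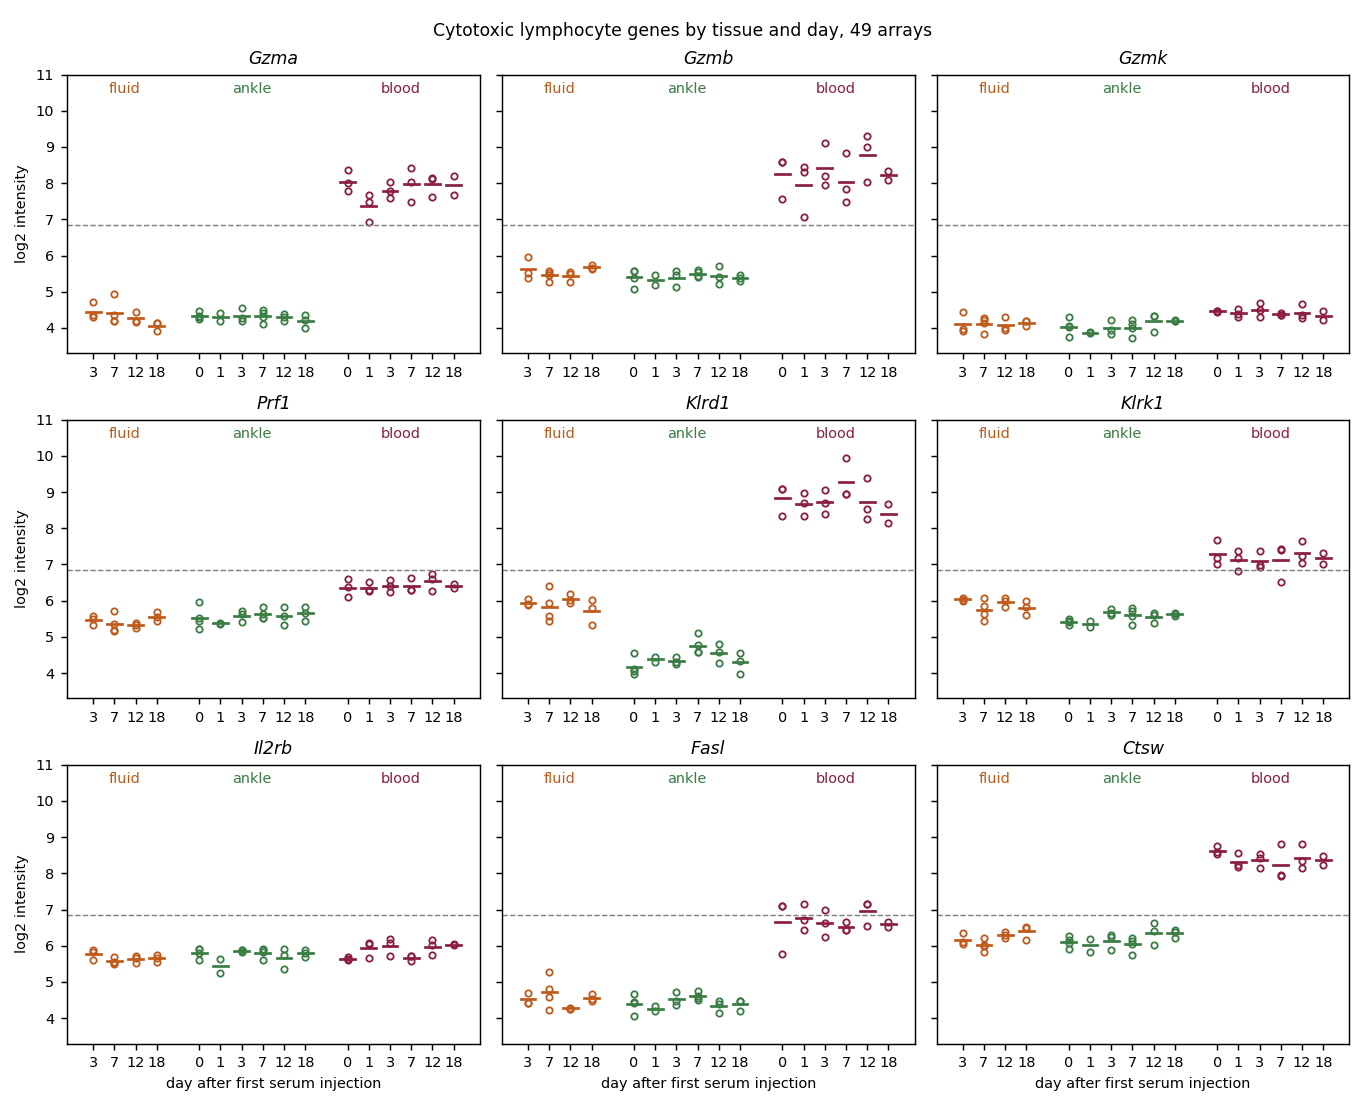
Log2 intensity of the 9 cytotoxic genes in each of the 49 arrays (open circles) with group means (bars), for fluid, ankle and blood by day after the first serum injection. The dashed line is the 95th percentile of the negative controls, 6.85. In blood 6 genes had a group mean above it, and in fluid and ankle 0 did.

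The cytotoxic genes were seen in circulating leukocytes. In blood 6 of the 9 genes had at least 1 group mean above the negative controls (Gzma, Gzmb, Klrd1, Klrk1, Fasl and Ctsw), while Gzmk, Prf1 and Il2rb had none. Gzma, Gzmb, Klrd1 and Ctsw were above the controls in all 17 blood arrays, Klrk1 in 15 and Fasl in 6. Of the Fasl group means in blood, only that of day 12 exceeded the controls. In fluid and in ankle, 0 of the 9 genes exceeded the controls in any array. The low signal of Gzmk, Prf1 and Il2rb in blood says nothing about protein, and a probe set under the controls cannot give a level.

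Joint fluid cells gave less signal of the cytotoxic genes than blood leukocytes of the same days. The contrast averaged the fluid minus blood differences at days 3, 7, 12 and 18 (13 fluid and 11 blood arrays), and all 9 genes were lower in fluid at an adjusted p under 0.05 (limma, Benjamini-Hochberg over all 8251 genes). Of all genes tested, 58.8% were called in this contrast and 34% were called lower, while 2050 of the 8251 were called higher. The median difference was -2.13 for the 9 genes and -0.08 for all genes. Means given below are averages of day means, and errors of differences are standard errors.

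Granzyme A is a tryptase-like protease of the granule. In fluid its log2 levels were 4.70, 4.30 and 4.35 at day 3, 4.94, 4.35, 4.19 and 4.20 at day 7, 4.18, 4.19 and 4.44 at day 12 and 3.93, 4.13 and 4.13 at day 18. In blood of the same days Gzma measured 8.03, 7.78 and 7.58 at day 3, 8.03, 8.40 and 7.47 at day 7, 8.15, 8.13 and 7.61 at day 12 and 7.66 and 8.21 at day 18. The highest fluid array thus lay far below the lowest blood array. Gzma averaged 4.30 in fluid and 7.92 in blood, a difference of -3.62 ± 0.12 (limma adjusted p = 1.89e-19), and the fluid mean was close to the median of the negative controls, 4.40. Day by day the fluid minus blood difference in Gzma was -3.34, -3.55, -3.70 and -3.88 at days 3, 7, 12 and 18.

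Granzyme B cuts after aspartate and activates caspases in the target cell. Over all arrays Gzmb ranged from 5.26 to 5.96 in fluid with a median of 5.52, against 7.07 to 9.29 in blood with a median of 8.31. No fluid array reached a blood array. The difference was -2.81 ± 0.18 (means 5.55 in fluid and 8.36 in blood, limma adjusted p = 5.56e-13). Granzyme K, a tryptase related to granzyme A, was near the median of the controls in both, at 3.82 to 4.43 in fluid and 4.21 to 4.68 in blood. Its arrays overlapped, and the called difference of -0.30 ± 0.07 (limma adjusted p = 7.42e-04) lay between values without a measurable level. It became 0 when values were floored at the 20th percentile.

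Perforin, the pore former that works with the granzymes, was lower in fluid by less. Prf1 ranged from 5.18 to 5.71 in fluid (median 5.38) and from 6.09 to 6.74 in blood (median 6.38), with no overlap but with every array under the controls. The difference was -1.01 ± 0.08 (limma adjusted p = 1.84e-11). Cathepsin W, a protease of NK cells and cytotoxic T cells, ranged from 5.84 to 6.52 in fluid (median 6.21) and from 7.94 to 8.82 in blood (median 8.44). Its difference was -2.13 ± 0.10 (limma adjusted p = 4.91e-16), and blood and fluid arrays did not overlap. Fas ligand gave -2.16 ± 0.14 (limma adjusted p = 4.86e-13), from 4.22 to 5.27 in fluid (median 4.47) and from 5.77 to 7.17 in blood (median 6.65). Its means in this contrast, 4.52 in fluid and 6.67 in blood, were both under the controls. The highest fluid array of Fasl, day 7 replicate 1, was one of the washed-out samples, and the same array was the highest in fluid for Gzma. Without the arrays of other preparation, Gzma differed by -3.72 and Fasl by -2.25, and all 9 genes still passed.

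The receptor subunits differed among themselves. Klrd1 measured 5.92, 6.05 and 5.88 at day 3, 5.45, 6.40, 5.57 and 5.93 at day 7, 6.20, 5.94 and 6.03 at day 12 and 5.34, 6.02 and 5.81 at day 18 in fluid. In blood it measured 9.07, 8.40 and 8.70 at day 3, 8.94, 9.94 and 8.94 at day 7, 9.39, 8.54 and 8.25 at day 12 and 8.16 and 8.66 at day 18. Every fluid array was below every blood array, by -2.89 ± 0.15 on average (limma adjusted p = 5.15e-15). Klrk1 ranged from 5.43 to 6.08 in fluid and from 6.53 to 7.69 in blood, again apart, with a difference of -1.29 ± 0.11 (limma adjusted p = 2.11e-10). Its weaker probe set, not tested by itself, lay at 3.14 to 3.42 in fluid and 3.75 to 4.48 in blood. Il2rb, at 5.51 to 5.89 in fluid and 5.58 to 6.18 in blood, overlapped and differed by -0.26 ± 0.07 (limma adjusted p = 0.0015).

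**Figure D2:**
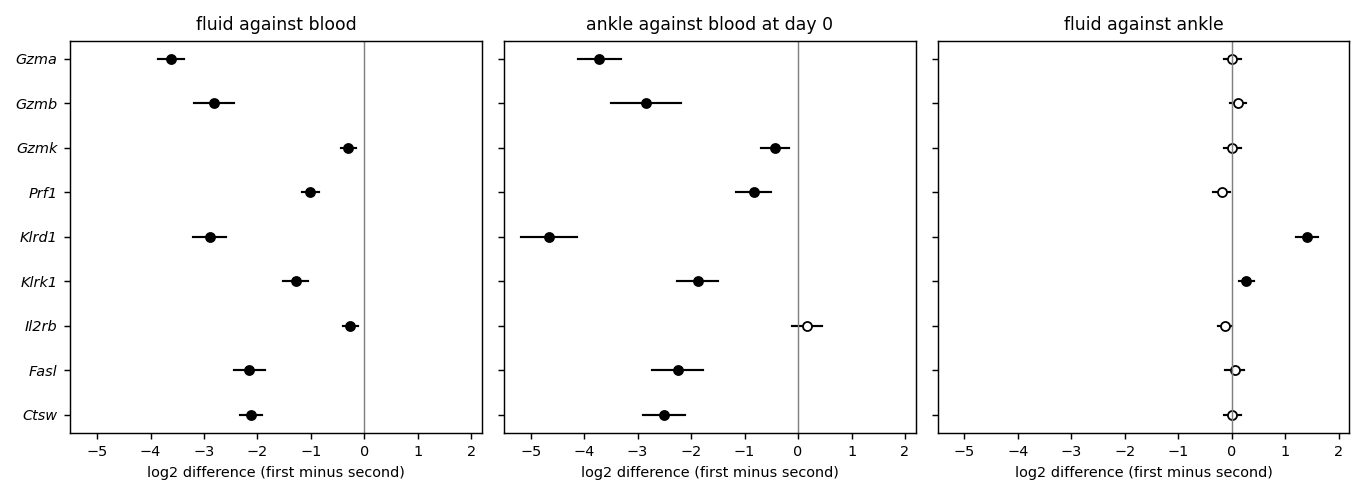
Log2 difference between tissues for each gene with its 95% interval from limma: fluid minus blood and fluid minus ankle (each averaged over days 3, 7, 12 and 18), and ankle minus blood at day 0. Filled points passed an adjusted p of 0.05. All 9 genes were lower in fluid than in blood, 8 were lower in ankle than in blood, and Klrd1 stood apart between fluid and ankle.

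Other lymphocyte genes were lower in fluid as well. Of 13 measured T cell markers 12 were lower in fluid than in blood and 0 higher, with a median of -2.26, and of 10 B cell markers 10 were lower, with a median of -3.16. The T cell coreceptor chain Cd8b1 differed by -5.04, the adhesion receptor Cd2 by -3.78 and the T cell receptor chain Cd3d by -4.37, all past the threshold. The B cell receptor chain Cd79b differed by -4.77. The summed level of the T cell markers was 9.55 to 9.90 (log2) over the 13 fluid arrays and 11.50 to 12.18 over the 17 blood arrays, and that of the B cell markers was 9.43 to 9.88 in fluid and 12.95 to 13.55 in blood. Intensities have no true zero. Cd3d (3.18 to 3.70), Cd3g (4.36 to 4.85) and Cd8a (3.96 to 4.62) stayed under the controls in every fluid array, Cd3e reached 6.97, and Cd4 lay between 7.15 and 7.88 in fluid and between 7.26 and 7.79 in blood.

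Monocyte and macrophage genes moved the other way, and neutrophil genes went both ways. Of 11 measured monocyte and macrophage markers 10 were higher in fluid than in blood and 1 lower, with a median of 2.12, and of 14 neutrophil markers 6 were higher and 5 lower, with a median of -0.06. The summed level of the monocyte and macrophage markers was 13.13 to 14.30 in fluid and 10.63 to 12.06 in blood. That of the neutrophil markers was 13.35 to 14.17 in fluid and 12.28 to 13.95 in blood. Precursor markers of red cells, 4 of 5 of which were lower in fluid, summed to 10.36 to 13.50 in fluid and 13.48 to 14.47 in blood. The part of these cell types in the lower cytotoxic signal of fluid was not tested.

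Among other NK receptors and identity genes, 12 of 18 measured were lower in fluid than in blood and 2 higher, with a median of -0.62. Of these 18, only 5 had any group mean above the controls in blood, 2 in fluid and 2 in ankle. The smallest p was that of Klra3, an inhibitory receptor of the Ly49 family, at 3.40 to 3.97 in fluid and 6.84 to 8.39 in blood, a difference of -3.90 (limma adjusted p = 2.08e-21). Klrg1, an inhibitory receptor of mature NK cells and effector T cells, differed by -2.23 (limma adjusted p = 7.24e-13), and Klrb1a, of the NKR-P1 family, by -1.67 (limma adjusted p = 1.24e-13), both with means under the controls in fluid and in blood. Ncr1, which encodes the NK receptor NKp46, lay under the controls in every array, at 2.77 to 3.57 in fluid, 2.62 to 3.27 in ankle and 3.48 to 4.15 in blood. Its probe set therefore gave no level for the most specific NK marker of the list.

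Genes that serve the same receptors and granules went both ways. Of 12 adaptors and kinases of activating receptors, 6 were lower in fluid than in blood and 2 higher. The signalling chain Cd247, under the controls in both, differed by -1.21 (limma adjusted p = 3.01e-13) and the kinase Fyn by -1.24 (limma adjusted p = 1.19e-08), both lower in fluid. The signalling chain Fcer1g, which myeloid cells use too, was higher in fluid by 1.46 (limma adjusted p = 9.96e-09). Of 10 genes of granule assembly and release, 7 were higher in fluid and 0 lower, where 2050 of all 8251 genes were called higher. Among the 7 were the lysosomal protease Ctsl, by 5.11 (limma adjusted p = 1.08e-18), and the lysosomal membrane proteins Lamp1, by 1.73 (limma adjusted p = 9.08e-14), and Lamp2, by 2.57 (limma adjusted p = 1.58e-13). These are lysosomal genes of phagocytes as well.

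Of 8 other granzymes and granule proteins, 3 were lower in fluid than in blood and 0 higher, where 34% of all genes were called lower. Among the 3 was Gzmm at -0.91 (limma adjusted p = 1.29e-08), with both means under the controls. Among 3 granzyme inhibitors, Serpinb9, the intracellular inhibitor of granzyme B, differed by -0.995 (limma adjusted p = 1.03e-08), while Serpinb6a was higher by 4.02 (limma adjusted p = 3.12e-17) and Serpina3n by 0.41 (limma adjusted p = 3.45e-04). Of 8 genes of the Fas and TRAIL death pathway, 4 were higher in fluid and 0 lower, among them Fas by 0.24 (limma adjusted p = 0.015). Of 17 genes of IL-2, IL-15 and other cytokine signalling, 6 were lower in fluid and 2 higher, where 34% of all genes were called lower. The IL-18 receptor chain Il18r1 was lower by -2.13 (limma adjusted p = 9.98e-16), and the IL-7 receptor chain Il7r by -1.68 (limma adjusted p = 2.71e-08).

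The effector cytokines and chemokines showed both directions, with 4 of 9 lower in fluid than in blood and 3 higher. Ccl5, a chemokine stored by cytotoxic lymphocytes, was at 6.33 to 8.36 in fluid and 11.03 to 12.23 in blood, a difference of -4.66 (limma adjusted p = 6.25e-19). Ltb, the lymphotoxin beta gene, was lower by -2.63 (limma adjusted p = 1.30e-15). Ccl3, which macrophages and neutrophils also make, was at 9.18 to 10.75 in fluid and 7.51 to 8.51 in blood, higher by 1.99 (limma adjusted p = 6.02e-13). Of 7 lymphocyte homing receptors, 5 were lower in fluid, among them Ccr7 at -2.23 (limma adjusted p = 5.87e-13) and Itga4 at -2.25 (limma adjusted p = 2.33e-11), both with means under the controls in fluid and in blood, and 1 was higher. Both measured MHC ligands, H2-K1 (-0.58) and H2-D1 (-0.59), were lower in fluid.

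**Figure D3:**
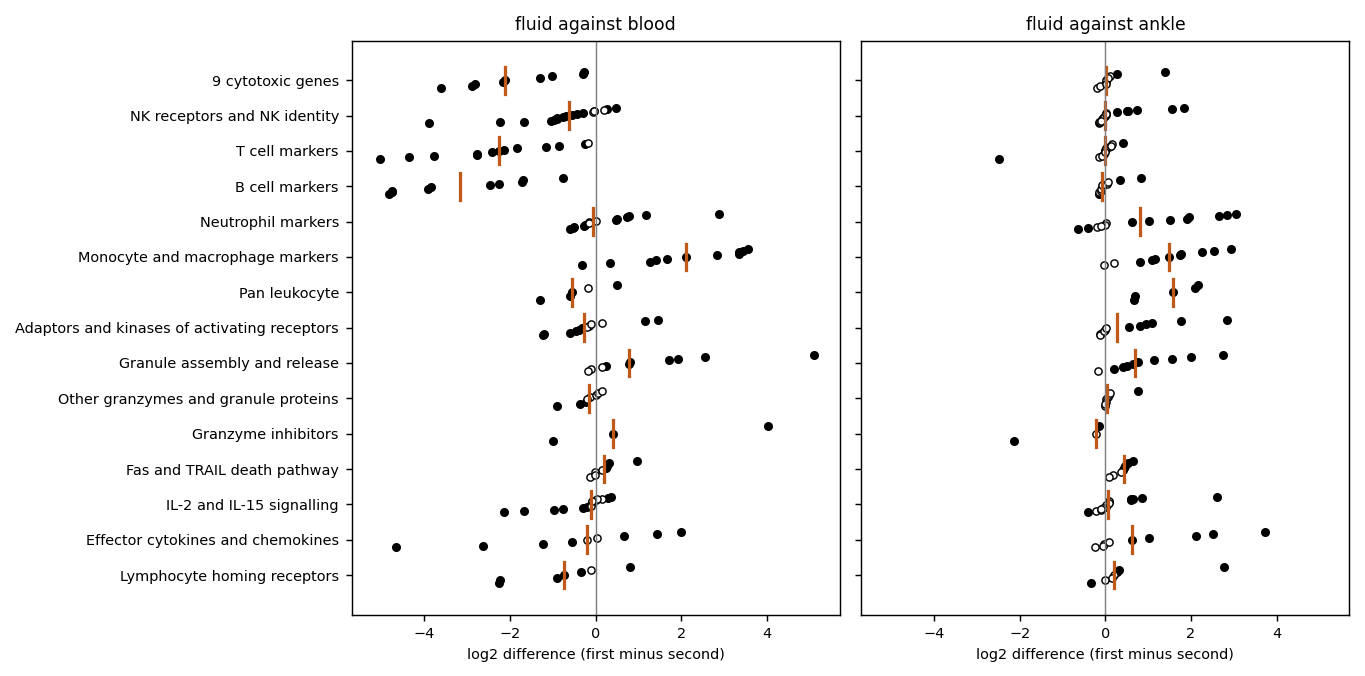
Log2 difference of each measured gene in 15 groups of genes, for fluid minus blood (left) and fluid minus ankle (right), each averaged over days 3, 7, 12 and 18. Filled points passed an adjusted p of 0.05, open points did not, and the orange bar is the median of the group (-2.13 and 0.01 for the 9 cytotoxic genes).

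Before serum, the ankle likewise gave less signal of these genes than blood. At day 0 (4 ankle and 3 blood arrays), 8 of the 9 genes were lower in ankle, where 42.2% of all genes were called and 19.8% were called lower. The median difference was -2.25 for the 9 genes and 0.05 for all genes. Klrd1 measured 4.05, 3.97, 4.56 and 4.11 in ankle, against 8.34, 9.09 and 9.08 in blood. That difference, -4.67 ± 0.26 (limma adjusted p = 2.67e-15), started from ankle values near the median of the controls, as did that of Gzma, -3.72 ± 0.19 (4.33 in ankle and 8.04 in blood, limma adjusted p = 7.21e-16). Gzmb (-2.84 ± 0.32), Ctsw (-2.51 ± 0.19), Fasl (-2.25 ± 0.23), Klrk1 (-1.87 ± 0.19), Prf1 (-0.83 ± 0.16) and Gzmk (-0.43 ± 0.13) were also lower, with no overlap between ankle and blood arrays. Of these, Fasl, Prf1 and Gzmk had both means under the controls. The Gzmk difference became 0 when values were floored at the 20th percentile. Il2rb, at 5.92, 5.61, 5.80 and 5.92 in ankle and 5.64, 5.68 and 5.59 in blood, differed by 0.17 ± 0.14 and did not pass (limma adjusted p = 0.333).

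Between fluid and ankle, of the 9 genes only the lectin receptors Klrd1 and Klrk1 passed. Averaged over days 3, 7, 12 and 18 (13 arrays each), 2 of the 9 genes were higher in fluid and 0 lower, where 38.1% of all genes were called and 18.7% were called higher. The 95% interval of the fluid minus ankle difference was -0.14 to 0.17 for Gzma, -0.04 to 0.27 for Gzmb, -0.14 to 0.17 for Gzmk, -0.15 to 0.17 for Ctsw and -0.12 to 0.23 for Fasl. Since all these values were under the controls, the intervals bound signal and not transcript. Prf1 (-0.19 ± 0.08, limma adjusted p = 0.0644) and Il2rb (-0.13 ± 0.06, limma adjusted p = 0.126) leaned lower in fluid without passing. Both passed when the ankle arrays with liver transcripts were left out (Prf1 at -0.23, limma adjusted p = 0.0165, and Il2rb at -0.16, limma adjusted p = 0.035) or ankle day 12 replicate 1 alone (Prf1 at -0.22, limma adjusted p = 0.0318, and Il2rb at -0.17, limma adjusted p = 0.0315). Prf1 also passed without ankle day 3 replicate 1 (limma adjusted p = 0.0445), ankle day 18 replicate 1 (limma adjusted p = 0.0412), fluid day 7 replicate 4 (limma adjusted p = 0.0224) or the fluid arrays of other preparation (limma adjusted p = 0.0411). With array weights Prf1 (limma adjusted p = 0.00189) and Il2rb (limma adjusted p = 0.0085) passed, and with quantile normalization done anew Gzmb passed at 0.17 (limma adjusted p = 0.0428).

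Klrd1 was the exception. The 13 fluid arrays lay between 5.34 and 6.40 with a median of 5.93, and the 19 ankle arrays between 3.97 and 5.11 with a median of 4.45. The groups did not overlap, and fluid was higher by 1.40 ± 0.10 (means 5.89 in fluid and 4.49 in ankle, limma adjusted p = 4.27e-12). Fluid minus ankle was 1.60, 1.08, 1.51 and 1.42 at days 3, 7, 12 and 18. Klrd1 was thereby the only one of the 9 genes with the order blood, fluid, ankle and no overlap at either step. The share of all genes without overlap was not counted, in this or any other comparison. Both fluid and ankle were under the controls, so no fold is given. Without the fluid arrays of other preparation the difference was 1.43 (limma adjusted p = 3.70e-10). Those left out include the fluid arrays amplified in 2 rounds as ankle was, so this does not separate tissue from preparation.

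Klrk1, next to Klrd1 on chromosome 6, was also higher in fluid than in ankle, by 0.27 ± 0.07 (means 5.89 and 5.61, limma adjusted p = 0.00156), with overlapping arrays. Among the other NK receptors and identity genes, 6 of 18 were higher in fluid than in ankle and 0 lower: Cd244a, a receptor of NK cells and some myeloid cells, by 1.84 (limma adjusted p = 1.06e-12), and Id2, a transcription regulator used by many cell types, by 1.54 (limma adjusted p = 1.69e-10) were the first by p. Klra3 (-0.01) and Ncr1 (0.02) did not pass, but both were under the controls in fluid, where no level can be read. The median of the 18 was 0.00, against -0.04 for all genes.

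Leukocyte genes at large were higher in fluid than in ankle. All 5 of 5 pan leukocyte markers passed, as did 8 of 14 neutrophil and 9 of 11 monocyte and macrophage markers. The summed level of the pan leukocyte markers was 12.54 to 13.04 in fluid and 11.50 to 12.15 in ankle at days 3 to 18. The adaptor Tyrobp, shared by NK and myeloid receptors, was higher in fluid by 2.83 (limma adjusted p = 8.03e-14), the granule proteoglycan Srgn by 2.74 (limma adjusted p = 4.21e-13) and Ccl3 by 3.74 (limma adjusted p = 2.79e-21). T cell markers did not move in one direction: of 13, 1 was higher (Cd28, 0.41) and 1 lower (Thy1, -2.49). Their summed levels were 9.55 to 9.90 in fluid and 10.08 to 10.43 in ankle at days 3 to 18. The part of these cells in the Klrd1 difference was not tested.

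In the arthritic ankle 1 cytotoxic gene passed at 1 time. Against day 0, 0 of the 9 genes passed at days 1, 3, 12 and 18, where 0%, 0.23%, 3.24% and 2.01% of all genes did (at day 1, limma gave 150 genes an unadjusted p under 0.05), and 1 passed at day 7, where 6.73% did and 3.09% were higher. Over days 3 to 18 together, 0 of the 9 passed, against 6.56% of all genes. The median change of the 9 at day 7 was 0.10, and that of all genes was 0.00.

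The gene that passed was Klrd1. It measured 5.11, 4.57, 4.77 and 4.59 at day 7, against 4.05, 3.97, 4.56 and 4.11 at day 0. The 2 days did not overlap, although day 7 replicate 2 exceeded day 0 replicate 3 by very little. The rise was 0.59 ± 0.16 (means 4.76 at day 7 and 4.17 at day 0, limma adjusted p = 0.032), all of it near the median of the negative controls. Replicate 1 of day 7, the highest Klrd1 array, was among the 4 arrays with liver transcripts, and without these 4 the rise was 0.43 (limma adjusted p = 0.135). The call was lost in 10 of 18 alternatives, and over all 18 the adjusted p ran between 0.0133 and 0.393. It was lost without replicates 1, 2 or 4 of day 0, where the rise was 0.55, 0.52 and 0.57, and without replicates 1 or 3 of day 7, where it was 0.47 and 0.58.

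At the same day 7 the other NK receptors and identity genes had 0 of 18 past the threshold and a summed level of 9.47 to 9.70, against 9.37 to 9.63 at day 0. Of the 18, only 2 had a mean above the controls at day 7 and 1 at day 0. T cell markers had 0 of 13, at 10.08 to 10.21 on day 7 and 10.04 to 10.20 on day 0. Neutrophil markers had 4 of 14 higher, with summed levels of 11.60 to 12.23 on day 7 and 10.07 to 10.12 on day 0, and pan leukocyte markers 2 of 5, at 11.55 to 12.08 on day 7 and 10.95 to 11.62 on day 0. The part of either in Klrd1 was not tested. S100a8, a neutrophil calprotectin subunit, was higher at day 7 by 2.94 (limma adjusted p = 8.80e-07) and the granule proteoglycan Srgn by 1.28 (limma adjusted p = 0.00443).

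The other members in ankle stayed within narrow bands. Over all 19 arrays Gzma spanned 4.01 to 4.55, Gzmb 5.08 to 5.72, Gzmk 3.72 to 4.32, Prf1 5.22 to 5.96, Fasl 4.05 to 4.76, Il2rb 5.25 to 5.92 and Ctsw 5.75 to 6.62. Klrk1 at day 3 measured 5.67, 5.60 and 5.76, against 5.50, 5.41, 5.43 and 5.32 at day 0. Those arrays did not overlap, but the difference of 0.26 ± 0.12 did not pass (limma adjusted p = 0.563). The change at day 7 had 95% intervals of -0.24 to 0.24 for Gzma and -0.19 to 0.39 for Gzmb, in signal under the controls.

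In blood, where 6 of the cytotoxic genes had a group mean above the controls, no change with time passed. At days 1, 3, 7, 12 and 18 against day 0, and over days 3 to 18, 0 of the 9 genes passed, where 0% of all genes did at any of these times by limma. The counts of genes at an unadjusted p under 0.05 were 589, 1702, 168, 513 and 1693 at days 1, 3, 7, 12 and 18, and 1435 over days 3 to 18.

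Gzma gave the clearest lean. It measured 7.67, 6.92 and 7.48 at day 1, against 8.355, 7.777 and 8.003 at day 0, with every day 1 array below every day 0 array. The difference was -0.69 ± 0.26, or 1.61-fold lower at day 1 (means 7.36 and 8.04), with a 95% interval of -1.23 to -0.14 and a limma adjusted p of 0.586. By day 7 it measured 8.03, 8.40 and 7.47. Its differences to day 0 were -0.25, -0.08, -0.08 and -0.11 at days 3, 7, 12 and 18.

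Gzmb varied most between replicates, with a within-group SD of 0.64 in blood, against 0.30 for Ctsw and 0.35 for Gzma. It measured 8.58, 7.55 and 8.59 at day 0, 8.31, 7.07 and 8.43 at day 1, 9.11, 7.94 and 8.19 at day 3, 8.83, 7.48 and 7.83 at day 7, 8.99, 9.29 and 8.04 at day 12, and 8.10 and 8.35 at day 18. Apart from day 18, arrays of one day thus spanned more than the day means did. The largest change, 0.53 ± 0.44 at day 12, had a 95% interval of -0.41 to 1.47 (limma adjusted p = 0.677). With 2 or 3 arrays a day, a change of that size in Gzmb was not detectable.

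Klrd1 in blood measured 8.34, 9.09 and 9.08 at day 0 and 8.94, 9.94 and 8.94 at day 7, a difference of 0.44 ± 0.33 that did not pass (limma adjusted p = 0.999). At day 18 it measured 8.16 and 8.66, a difference of -0.43 ± 0.37 (limma adjusted p = 0.452). Fasl had its lowest blood array at day 0, replicate 2 (5.77), beside 7.0995 and 7.0992 in the other 2, and its changes lay between -0.14 and 0.30. Ctsw was lower than at day 0 on each later day, by -0.30, -0.24, -0.39, -0.19 and -0.26 at days 1, 3, 7, 12 and 18, none of which passed (limma adjusted p = 0.475 to 0.999), although the 2 arrays of day 18 lay below all 3 of day 0. Klrk1 changed by -0.19 to 0.02, Prf1 by -0.0025 to 0.17 and Gzmk by -0.13 to 0.04, the last 2 under the controls.

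Il2rb leaned the other way. It measured 5.73, 6.18 and 6.07 at day 3, 5.74, 6.03 and 6.16 at day 12 and 6.01 and 6.06 at day 18, against 5.64, 5.68 and 5.59 at day 0, and on these 3 days no array overlapped day 0. The differences were 0.35 ± 0.14, 0.34 ± 0.14 and 0.40 ± 0.16 (limma adjusted p = 0.223, 0.664 and 0.226), all under the controls. Without blood day 3 replicate 1, the day 3 difference was 0.49 and passed (limma adjusted p = 0.0442), but so did 1101 of all 8251 genes, against 0 with that array. At day 7 the arrays were 5.71, 5.58 and 5.72, beside those of day 0.

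**Figure D4:**
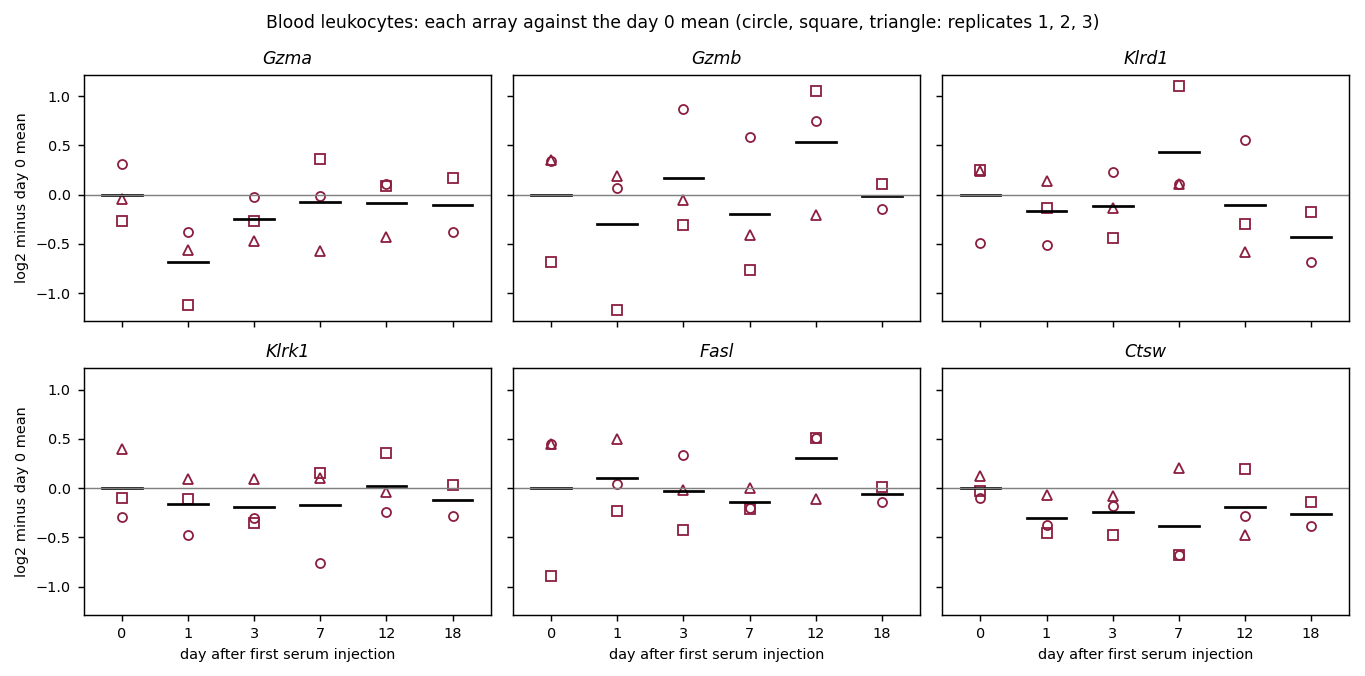
Log2 level in each blood array minus the mean of the 3 day 0 arrays, by day after the first serum injection. The 6 cytotoxic genes shown had a blood group mean above the controls, Fasl at day 12 only. Open symbols are arrays and bars are day means. Day 1 arrays of Gzma all lie below those of day 0, and arrays of one day spread as widely as the days for Gzmb.

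Within fluid, 0 of the 9 genes passed at days 7, 12 and 18 against day 3, where 2.56%, 2.7% and 3.19% of all genes did. Gzma came nearest, with 3.93, 4.13 and 4.13 at day 18, against 4.70, 4.30 and 4.35 at day 3, without overlap but near the median of the controls (-0.39 ± 0.18, limma adjusted p = 0.331). Klrk1 at day 7 measured 6.06, 5.86, 5.63 and 5.43, against 6.07, 6.03 and 6.00 at day 3, a difference of -0.29 ± 0.15 (limma adjusted p = 0.578). Klrd1 differed by -0.11, 0.11 and -0.22 at days 7, 12 and 18. Of the related lists, Il7r was lower than at day 3 on days 7 (-1.22, limma adjusted p = 0.0147) and 18 (-1.24, limma adjusted p = 0.0187), and Cd2 on day 7 (-0.53, limma adjusted p = 0.018).

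The difference of 2 courses was tested directly in 2 contrasts. For the ankle response minus the blood response (days 3 to 18 against day 0 in each), 0 of the 9 genes passed, where 4.12% of all genes did, with values from -0.31 for Il2rb to 0.38 for Ctsw. For the change of fluid minus that of blood, day 18 against day 3, 0 of the 9 passed, where 2.15% of all genes did, with values from -0.53 for Gzma to 0.24 for Ctsw.

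Across the 17 blood arrays the cytotoxic genes did not form one block. Of 36 pairs, Pearson's r ran from -0.54 to 0.81 with a median of 0.09, and 5 pairs were above 0.5. The highest was Gzmb with Prf1, perforin's partner protease (r = 0.81, rho = 0.77, and r = 0.81 without the 2 arrays farthest from the median of Gzmb), although Prf1 was under the controls. Gzmb with Fasl gave r = 0.72 and rho = 0.79, Prf1 with Fasl r = 0.66 and rho = 0.60, and Klrk1 with Ctsw r = 0.62 and rho = 0.58. The lowest was Klrd1 with Il2rb (r = -0.54, rho = -0.43). With the day means taken out, Gzmb and Prf1 still gave r = 0.81, so the relation was seen among arrays of the same day. Differences by replicate number were not taken out. Replicate 2 was lowest for Gzmb on days 0, 1, 3 and 7, and for Prf1 on days 0, 3 and 7, but for neither on day 12. The part of replicate number in the relation was not tested. The correlations describe 17 arrays of 1 tissue, of which day 3 replicate 3 was amplified in another way, and no p-value is given.

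The mean of the 6 genes with a blood group mean above the controls was also set against 3524 other genes that met the same rule. Fasl met it only at day 12. The most alike were Leprot (r = 0.87), Vdac3 (r = 0.83), Imp4 (r = 0.82), Ahcyl1 (r = 0.82), Serpinb9 (r = 0.81), Eif2b1 (r = 0.81), Commd7 (r = 0.80), Dusp12 (r = 0.79), Nudt16l1 (r = 0.78) and Sptlc2 (r = 0.78) over the 17 arrays, beside a median of 0.13 over all candidates. Spearman's rho of these 10 ran from 0.70 to 0.88. Serpinb9 was the only one among them from the lists of this pathway. In fluid no such ranking was made, since 0 of the 9 genes were above the controls.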

How the data were processed

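Fluid, ankle and blood RNA was measured on 49 arrays. The deposited values are intensities on a linear scale; RMA made them, per the submitters' processing notes (version not given in the sources used here). They were taken as log2. Platform annotation gave 1 symbol to 10833 of 12488 probe sets, several to 396, and 1259 were unnamed or controls; genes came from the probe set with the highest mean over all arrays (8251 genes). Names, positions and promoters are from RefSeq, GRCm38.p6.

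Each tissue or pair of tissues was fitted with 1 mean per group in limma 3.58.1 (R 4.3.3; lmFit, and eBayes with trend), with p-values adjusted over all genes at 0.05. Fits were tested on simulated data. The number of arrays, 2 to 4 per group, limits the precision. Background is the 95th percentile of 34 negative control probe sets. All 9 genes are named in every comparison; of each other list, up to 3 genes past the threshold with the smallest p are named, beside fixed lineage markers and the 10 genes most alike in blood. Genes and lists were chosen with earlier results of these data known. Alternatives were another normalization, centring, a signal filter, a floor, averaged probe sets, array weights, 1 fit of all arrays, the replicate block, a beta-actin covariate, and leaving out arrays.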

Additional observations from a re-analysis of the deposited data

Results flagged for a closer look

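Of 30 sets of 4 values (10 probe sets in ankle days 0 and 7 and fluid day 7), 1 held an array far from the others. The weaker Klrk1 probe set measured 3.37 in ankle day 7 replicate 4, against 3.04 to 3.09 in the other 3 arrays of that day, a gap of 0.86 of the whole range. All 4 values were under the median of the negative controls. Chance sets such a mark on about 1 in 20 sets of this kind.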

How the results depend on the processing

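Of 402 recomputed counts of called genes among the 9, 377 stayed within 1.5 times. Of 3558 single values, 276 changed sign without a call in either fit, and 0 changed sign with a call in at least 1. All 9 stayed lower in fluid than in blood in every alternative that kept them, except Gzmk with a floor (0, adjusted p = 1). Klrd1 and Klrk1 stayed higher in fluid than in ankle in all 36 alternatives (1.16 to 1.47 and 0.20 to 0.32). The count at ankle day 7 was 0 with the floor, with array weights, with all 49 arrays in 1 fit, without the arrays with liver transcripts and with the beta-actin covariate, and 0 to 1 without single arrays. Array weights gave 3 at ankle day 12, 1 at ankle day 18 and over ankle days 3 to 18, 1 at blood days 3, 12 and 18 and over days 3 to 18 (Il2rb), 1 at fluid day 18, 4 for fluid against ankle, 2 for the ankle response minus the blood response and 1 for the fluid change minus the blood change. Fluid against ankle gave 4 without liver arrays and 2 to 4 without single arrays; blood day 3 gave 0 to 1. Ankle against blood at day 0 gave 5 with low signal left out, where fewer genes were tested. Where a count moved otherwise, the cause was not tested. Over all genes, array weights raised calls to 3948, 2238 and 2333 at blood days 3, 12 and 18 (0 in each without weights), to 1274, 2592 and 1540 at ankle days 7, 12 and 18 (555, 267 and 166), to 2241 over ankle days 3 to 18 (541), to 4661 for fluid against ankle (3145) and to 2752 at fluid day 18 (263), and the beta-actin covariate gave 250 at ankle day 7. Array weights also raised calls to 2974 over blood days 3 to 18 (0 without weights). They gave 3531 for the ankle response minus the blood response (340) and 1817 for the fluid change minus the blood change (177). Without blood day 3 replicate 1, blood day 3 gave 1101 calls over all genes. Klrd1 at ankle day 7 was 0.59 both with all arrays in 1 fit and with beta-actin.

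The labels state no pairing by replicate number, and not every pair of same-numbered arrays deviated together: r was -0.31 to 0.68 in fluid, -0.18 to 0.73 in ankle and -0.45 to 0.82 in blood. The medians were -0.06, 0.20 and 0.19, against -0.06, -0.11 and -0.13 for arrays of other numbers, and the 4 ankle arrays with liver transcripts are all replicate 1. With the replicate block, 9 genes were called for fluid against blood, 2 for fluid against ankle, 8 for ankle against blood, 1 at ankle day 7 (Klrd1, adjusted p = 0.0195) and 0 elsewhere.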
